A study of Mus musculus with 10 samples.

Results

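The mu-class glutathione transferases, encoded in mice by Gstm1 to Gstm7, were followed across skin inflamed with imiquimod, with and without the dopamine agonist quinpirole. The members were chosen by gene symbol, with their quinpirole values already known, and all 7 were present among the 17016 genes measured. The skin came whole from the backs of BALB/c females, 10 to 11 weeks old, and its RNA was sequenced. In both groups a cream holding 5% imiquimod, which activates the innate immune sensor TLR7, was put on the shaved back daily for 5 days, which gives an inflammation resembling psoriasis. The quinpirole group (5 libraries) also had 5 intraperitoneal injections over the same days of quinpirole, which activates the D2 type of dopamine receptor (DRD2), and the vehicle group (5 libraries) had vehicle. No skin free of imiquimod was analysed here, and each comparison is between imiquimod-treated groups. The labels number the samples in each group without saying that each was a separate mouse, and p-values therefore measure the spread between these samples.

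Glutathione transferases join the tripeptide glutathione to reactive, electrophilic molecules, such as products of lipid peroxidation and many foreign compounds. The conjugates are then pumped out of the cell and trimmed to mercapturic acids. The mu class works as dimers in the cytosol, and its genes lie side by side in the genome. In skin, glutathione-linked enzymes are part of the defence of keratinocytes and dermal cells against oxidants and irritants. Several of their genes are known targets of the transcription factor NRF2, which binds antioxidant response elements.

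The members lie together on chromosome 3 of mm10, over 149.1 kb from position 107895821 to 108044894 in the GENCODE annotation of that build. In order along the chromosome they are Gstm5 (chr3:107895821-107898686), Gstm7 (chr3:107926334-107931817), Gstm6 (chr3:107938847-107943749), Gstm3 (chr3:107963696-107969283), Gstm2 (chr3:107981702-107986453), Gstm1 (chr3:108012255-108017973) and Gstm4 (chr3:108040408-108044894). Gstm5 is on the plus strand and the other members are on the minus strand. The main transcript of each has 8 exons. Its coding part is 672 bases in Gstm5 and 654 bases in each other member.

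How alike the members are bears on how well reads can be told apart, so the same stretch near the start of the coding sequence is shown for each. It covers coding bases 13 to 72, counted from the start codon (22 to 81 in Gstm5), 5′ to 3′ on the coding strand of the GENCODE transcripts, and capitals mark bases that differ from Gstm1.
Gstm1: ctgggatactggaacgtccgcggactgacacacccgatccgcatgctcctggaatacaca
Gstm2: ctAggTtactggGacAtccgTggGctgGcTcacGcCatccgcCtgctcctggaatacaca
Gstm3: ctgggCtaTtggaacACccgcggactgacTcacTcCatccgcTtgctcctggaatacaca
Gstm4: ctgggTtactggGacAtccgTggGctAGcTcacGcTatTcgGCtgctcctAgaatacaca
Gstm5: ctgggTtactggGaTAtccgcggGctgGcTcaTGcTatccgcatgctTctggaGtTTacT
Gstm6: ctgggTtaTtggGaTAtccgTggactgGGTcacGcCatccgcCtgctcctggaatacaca
Gstm7: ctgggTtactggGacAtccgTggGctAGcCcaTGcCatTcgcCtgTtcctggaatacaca
In these 60 bases Gstm3 differed from Gstm1 at 8 positions, Gstm2 at 11, Gstm6 at 12, Gstm4 and Gstm7 at 14 and Gstm5 at 15. Over the whole coding sequence, identity ran from 69.9% between Gstm3 and Gstm5 to 89.4% between Gstm1 and Gstm3. It was 85.9% between Gstm1 and Gstm2.

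The closest copies share whole stretches of transcript. Of the 50-base windows of the main Gstm1 transcript, 23.1% occur in the transcript of another gene, 10.9% in another member. Gstm1 shared 215 windows with Gstm2-ps1, which is outside the 7 members, 124 with Gstm3 and 11 with Gstm2. Windows shared with any other gene made up 28.8% in Gstm3, 11.8% in Gstm6 and 9.36% in Gstm2. Those shared with another member made up 15.8%, 6.88% and 1.08%, in the same order. In Gstm4, Gstm5 and Gstm7 the share was 0%. With windows of 100 bases the shares with any other gene were 7.73% in Gstm1, 13.8% in Gstm3, 2.47% in Gstm6 and 0.622% in Gstm2. The division of reads from such stretches is thus uncertain, among Gstm1, Gstm2, Gstm3 and Gstm6 and between these and genes outside the family. The read length is not given in the sources used here.

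Levels are given as CPM, read counts scaled by the authors to a common library size. Libraries held 6763367 to 8361877 reads assigned to genes, and 1 read was worth 0.119 to 0.146 CPM. Of 14548 genes tested with limma, 3 passed a Benjamini-Hochberg adjusted p of 0.05, 2 of them higher with quinpirole, and the median log2 fold change was -0.0021. Of the 14 marker lists, the hair shaft list differed most between libraries, across both groups. The mean log2(CPM + 1) of 26 hair shaft markers was 0.48 in vehicle replicate 5, 0.67 in quinpirole replicate 2 and 0.57 in quinpirole replicate 4, against 2.97 to 6.58 in the other libraries. The labelled tissue held fibroblast, keratinocyte and endothelial markers in every library.

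Gstm2 and Gstm1 made up most of the summed level of the family, and 5 of the 6 members tested were higher on average with quinpirole. Summed over the 7 members, the level was 228.7, 226.1, 204.2, 218.3 and 277.7 CPM in vehicle replicates 1 to 5, and 267.6, 339.2, 352.6, 305.5 and 309.1 CPM in quinpirole replicates 1 to 5. The groups overlapped, since vehicle replicate 5 lay above quinpirole replicate 1, while the other quinpirole libraries lay above all vehicle libraries. The mean was 231 ± 27.8 CPM with vehicle and 314.8 ± 33.1 CPM with quinpirole (SD, n = 5), a log2 difference of 0.45. The comparison of the groups is the one by which the members were chosen, so the values of members are a description with no test. In bulk tissue, more cells of a type and more RNA per cell cannot be told apart.

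Gstm1, a principal mu-class enzyme of mouse liver that is also made in other tissues, had the largest log2 fold change of the family on the log2(CPM + 1) scale without covariates. Its level was 59.5, 59.4, 55.6, 52.2 and 88.8 CPM in vehicle replicates 1 to 5, and 76.6, 114, 107, 101 and 91.2 CPM in quinpirole replicates 1 to 5. Vehicle replicate 5 stood apart from the other vehicle libraries and reached into the quinpirole range, above quinpirole replicate 1. The means were 63.1 ± 14.7 and 97.9 ± 14.6 CPM (SD, n = 5), from 2344 and 3711 reads in all, a ratio of 1.55. On the log2(CPM + 1) scale the difference was 0.64 (SE 0.15). Leaving out vehicle replicate 5 gave 0.77, and the range over leaving out each library was 0.58 to 0.77.

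Gstm2, the most abundant member, was at 118, 114, 95.7, 114 and 133 CPM with vehicle and at 124, 143, 169, 150 and 141 CPM with quinpirole, replicates 1 to 5. Again the highest vehicle library was replicate 5 and the lowest quinpirole library was replicate 1, and the groups overlapped through these libraries. The means were 115 ± 13.3 and 145.3 ± 16.1 CPM (SD, n = 5), with a log2 fold change of 0.34 (SE 0.10). The ratio of means was 1.26, smaller than the 1.55 of Gstm1, and the difference between these ratios was not tested.

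Gstm5, the outlying member on the other strand, was the one member whose groups did not overlap. It was at 30.3, 34.3, 31.7, 33.7 and 33 CPM in vehicle replicates 1 to 5, and at 43.3, 61, 46.3, 34.6 and 49.1 CPM in quinpirole replicates 1 to 5. The vehicle libraries lay close together, and the quinpirole libraries were spread, with replicate 4 just above the highest vehicle library (34.6 against 34.3 CPM). The means were 32.6 ± 1.61 and 46.9 ± 9.61 CPM (SD, n = 5), from 1215 and 1775 reads, with a ratio of 1.44 and a log2 fold change of 0.49 (SE 0.13). Without quinpirole replicate 2 the log2 fold change was 0.39, and without quinpirole replicate 4 it was 0.59.

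An antisense gene, 4933431E20Rik, overlaps the start of Gstm5 on the minus strand (chr3:107888850-107896213). It was at 11.2, 15.2, 13.2, 10.0 and 9.37 CPM with vehicle and at 19, 24.9, 16.4, 10.4 and 12.9 CPM with quinpirole, replicates 1 to 5, and its groups overlapped. Quinpirole replicate 2 was the highest and replicate 4 the lowest of its group for both genes. The libraries were made with a directional kit, but whether the counting used strand is not given in the sources used here, so reads of Gstm5 and this gene over the shared part may not be told apart.

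Gstm6 and Gstm7 were lower in level. Gstm6 was at 12.4, 11.7, 11.9, 10.8 and 14.7 CPM with vehicle and at 14.2, 14.3, 21.9, 12.8 and 16.9 CPM with quinpirole, replicates 1 to 5. Its groups overlapped, and quinpirole replicate 3 was the highest by a wide margin. The means were 12.3 ± 1.45 and 16.0 ± 3.62 CPM (SD, n = 5), with a log2 fold change of 0.34 (SE 0.15), or 0.22 without quinpirole replicate 3. Gstm7 was at 1.51, 1.14, 1.44, 1.59 and 0.839 CPM with vehicle and at 2.02, 1.75, 2.59, 1.27 and 2.58 CPM with quinpirole, replicates 1 to 5. It rested on 49 reads with vehicle and 78 with quinpirole, and quinpirole replicate 4 lay inside the vehicle range. Its means of 1.303 ± 0.310 and 2.04 ± 0.564 CPM (SD, n = 5) gave a ratio of 1.57, while the log2 fold change was 0.39 (SE 0.17), since 1 is added to each value before the logarithm and this understates low genes. With edgeR on the recovered reads it was 0.64.

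Gstm4, at the other end of the cluster, differed between groups by less than the spread between libraries. It was at 6.79, 4.84, 7.6, 6.34 and 6.85 CPM with vehicle and at 7.02, 5.39, 5.45, 6.36 and 8.14 CPM with quinpirole, replicates 1 to 5. The log2 fold change was -0.0043 (SE 0.15), from 243 and 249 reads. Vehicle and quinpirole libraries were interleaved. Gstm3 was at or near 0, with 10 reads in all with vehicle and 5 with quinpirole, so no library had more than 4 reads. It was below the filter of 1 CPM in at least 5 libraries and was not tested, and its coding sequence is the closest of the family to that of the far more abundant Gstm1.

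**Figure D1:**
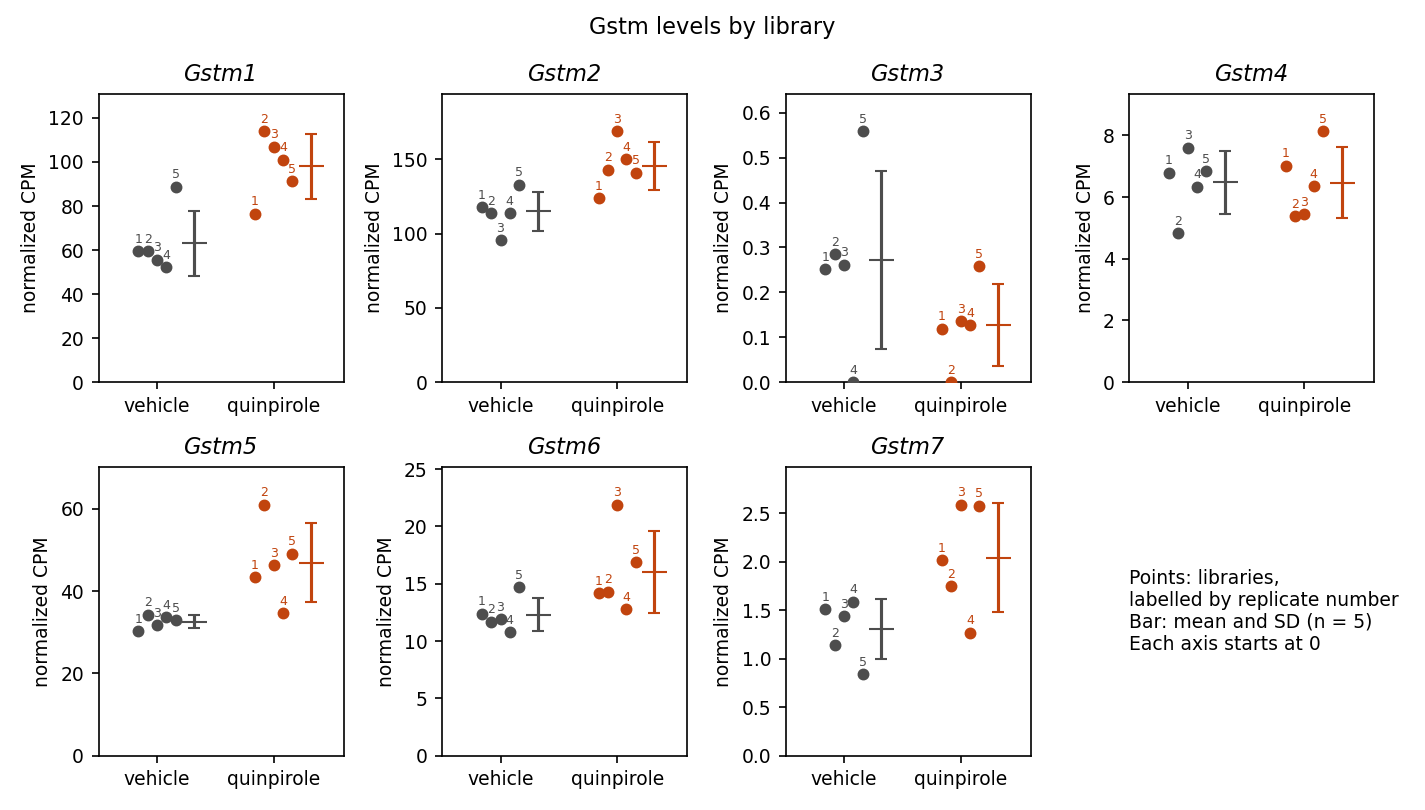
Normalized level in CPM of each of the 7 Gstm genes (vertical axes from 0) in 5 vehicle (grey) and 5 quinpirole (orange) libraries, each point a library labelled by its replicate number, with the mean and SD of each group. Vehicle replicate 5 is the highest vehicle library for Gstm1 (88.8 CPM) and Gstm2 (133 CPM), the Gstm5 groups do not overlap (34.3 against 34.6 CPM at the nearest), and the Gstm4 groups lie at the same level.

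Of the 6 members tested, 0 passed limma at a Benjamini-Hochberg adjusted p of 0.05, which 0.0206% of all genes tested passed, and 5 of 6 had an unadjusted p under 0.05, as did 11.4% of all genes tested. With DESeq2 on the recovered reads, Gstm1 and Gstm5 passed, where 1.51% of genes did, and with edgeR's quasi-likelihood test 0 members passed, where 0.00687% of genes did. The groups of 1 of 6 members, Gstm5, were apart with quinpirole higher, as for 1.34% of all genes tested, and 0 of 6 were apart with quinpirole lower, as for 0.859%. Since the members were chosen from this contrast, nothing is read from these counts. The log2 fold change stayed above 0 under each of 23 alternatives for Gstm1, Gstm2, Gstm5 and Gstm6, and under each of the 22 that could be run for Gstm7. For Gstm4 it was above 0 under 7 of 23. The alternatives refit the same libraries. Other filters and the replicate block leave the fold change of a tested member as it was, so these signs are a description only.

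Divided by the length of the main transcript, levels can be compared between members. With vehicle the order was Gstm2 at 108 ± 12.5 CPM per kb, Gstm1 at 48.9 ± 11.4, Gstm5 at 34.5 ± 1.70, Gstm6 at 10.7 ± 1.26, Gstm4 at 3.80 ± 0.6, Gstm7 at 0.946 ± 0.225 and Gstm3 at 0.207 ± 0.151 CPM per kb (SD, n = 5). The vehicle ranges of neighbours in this order did not overlap. The order was the same with quinpirole, where Gstm1 (59.4 to 88.5 CPM per kb) and Gstm5 (36.6 to 64.6 CPM per kb) overlapped across libraries, although Gstm1 was above Gstm5 in 5 of 5 libraries. The other neighbours in the order stayed apart. Per kb, Gstm2 held 52.2 ± 2.16% of the family's level with vehicle and 48.6 ± 2.92% with quinpirole, and Gstm1 held 23.4 ± 2.76% and 26.9 ± 1.95% (SD, n = 5). Both shares overlapped between groups. Gstm4 held 1.86 ± 0.392% with vehicle and 1.37 ± 0.346% with quinpirole.

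Members did not all move together from library to library within a group. Correlations of log2(CPM + 1) over the 10 libraries, after removing each group's mean, are given for 15 pairs as a description, since the libraries share their tissue makeup. Gstm1 and Gstm2 had the highest r, 0.74, and Gstm2 and Gstm6 had 0.61. Gstm1 and Gstm2 share some 50-base windows, while Gstm2 and Gstm6 share none. Gstm5 was nearly unrelated to Gstm2 (r = -0.00245) and weakly related to Gstm1 (r = 0.22), with which it shares no 50-base window. Gstm1 and Gstm7 had the lowest r, -0.51.

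Levels of markers of cell types moved with some of the members. Of 8 suprabasal keratinocyte markers tested, genes of the differentiating epidermis such as Krt1, Krt10 and Lor, 7 were higher with quinpirole, with a median log2 fold change of 0.41, and 0 passed limma. Their summed level ran from 9310 to 14900 CPM with vehicle and from 10900 to 18400 CPM with quinpirole, and Krt2 was at 0 in some libraries. All 14 sebaceous gland markers were higher on average (median 0.62, summed level 2300 to 4670 CPM with vehicle and 3950 to 5980 CPM with quinpirole). All 17 skeletal muscle markers were higher as well (median 1.19, 1570 to 6240 CPM against 3430 to 16700 CPM). Of 7 mast cell markers tested, 6 were higher (median 0.64, 85.2 to 146 CPM against 133 to 233 CPM). Fibroblast markers were split, 6 of 12 higher (median 0.01, 4980 to 8320 CPM against 5180 to 7650 CPM). All 26 hair shaft markers were lower on average (median -1.60, 19.6 to 7310 CPM against 24.2 to 7170 CPM), and 15 of them were at 0 in some library. In each of these lists 0 genes passed limma. An unadjusted limma p under 0.05 with quinpirole higher was found for 6.92% of all genes tested. In the lists above, it was found for 13 muscle, 10 sebaceous, 5 mast cell, 3 suprabasal and 3 fibroblast markers. With quinpirole lower it was found for 0 of 26 hair shaft markers, against 4.47% of all genes tested. Macrophage (8 of 9, median 0.30) and Schwann cell markers (6 of 6, 0.17) were mostly higher on average with quinpirole. Melanocyte (7 of 7, -0.93) and endothelial markers (5 of 8, -0.30) were mostly lower. Adipocyte (7 of 12 higher, 0.06), basal keratinocyte (4 of 8, 0.06), T cell (3 of 7, -0.19) and neutrophil markers (2 of 5, -0.60) were split. The part of the marker genes in the Gstm values was not tested beyond the values that follow.

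Gstm1 with the suprabasal markers had the largest Pearson r within groups of the 84 relations of a tested member with a marker list, though not the largest Spearman's rho. Within groups r was 0.82 and rho 0.70 over the 10 libraries, and leaving out the 2 libraries whose marker mean lay farthest from its median gave r = 0.84. Vehicle replicate 5 was the vehicle library with the highest suprabasal mean (9.45 on the log2 scale, the others 8.40 to 9.05), as it was for Gstm1. With the suprabasal mean of each library as a covariate, the log2 fold change of Gstm1 was 0.30 in place of 0.64, that of Gstm2 0.23 in place of 0.34 and that of the summed level 0.28 in place of 0.45. Gstm5 was at 0.43 in place of 0.49. The suprabasal covariate was added after the data were seen, and its list had the highest r for Gstm1, so these values are a description. The suprabasal mean also differed with treatment, at 8.40 to 9.45 with vehicle and 9.03 to 9.69 with quinpirole. Over all 14548 genes tested, 725 had an unadjusted limma p under 0.05 with this covariate, against 1657 without it. With the hair shaft mean as a covariate Gstm1 was at 0.52 and Gstm5 at 0.48, and with the skeletal muscle mean they were at 0.46 and 0.67.

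The relation of Gstm1 with the hair shaft mean was negative (r = -0.76, rho = -0.66) and weakened to r = -0.38 without the 2 farthest libraries, so it rests in part on those. Gstm1 had r = -0.75 with the melanocyte markers, or -0.335 without the 2 farthest libraries. With the Schwann cell markers r was -0.615 for Gstm1, or -0.87 without the 2 farthest, and -0.73 for Gstm2. Gstm5 had its highest r with the mast cell markers, secretory proteases and receptors of tissue mast cells, at 0.76 within groups (rho 0.855, and 0.64 without the 2 farthest libraries). Quinpirole replicate 2 was the highest library for both, and quinpirole replicate 4 was next to lowest of its group for the mast cell mean and lowest for Gstm5. Gstm7 followed the fibroblast markers (r = 0.78, rho = 0.65, 0.51 without the 2 farthest). These relations were picked from the 84 for their size and carry no test. For the summed Gstm level, r within groups was -0.75 with Schwann cell and -0.695 with melanocyte markers. With hair shaft and suprabasal markers it was -0.68 and 0.66. Without the 2 farthest libraries these values were -0.91, -0.25, -0.22 and 0.58, in the same order and also without a test. Over all libraries with the group means left in, they were 0.22, -0.66, -0.61 and 0.82. The sign with the Schwann cell markers thus changed, and all 6 of these were higher on average with quinpirole, as was the summed Gstm level.

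**Figure D2:**
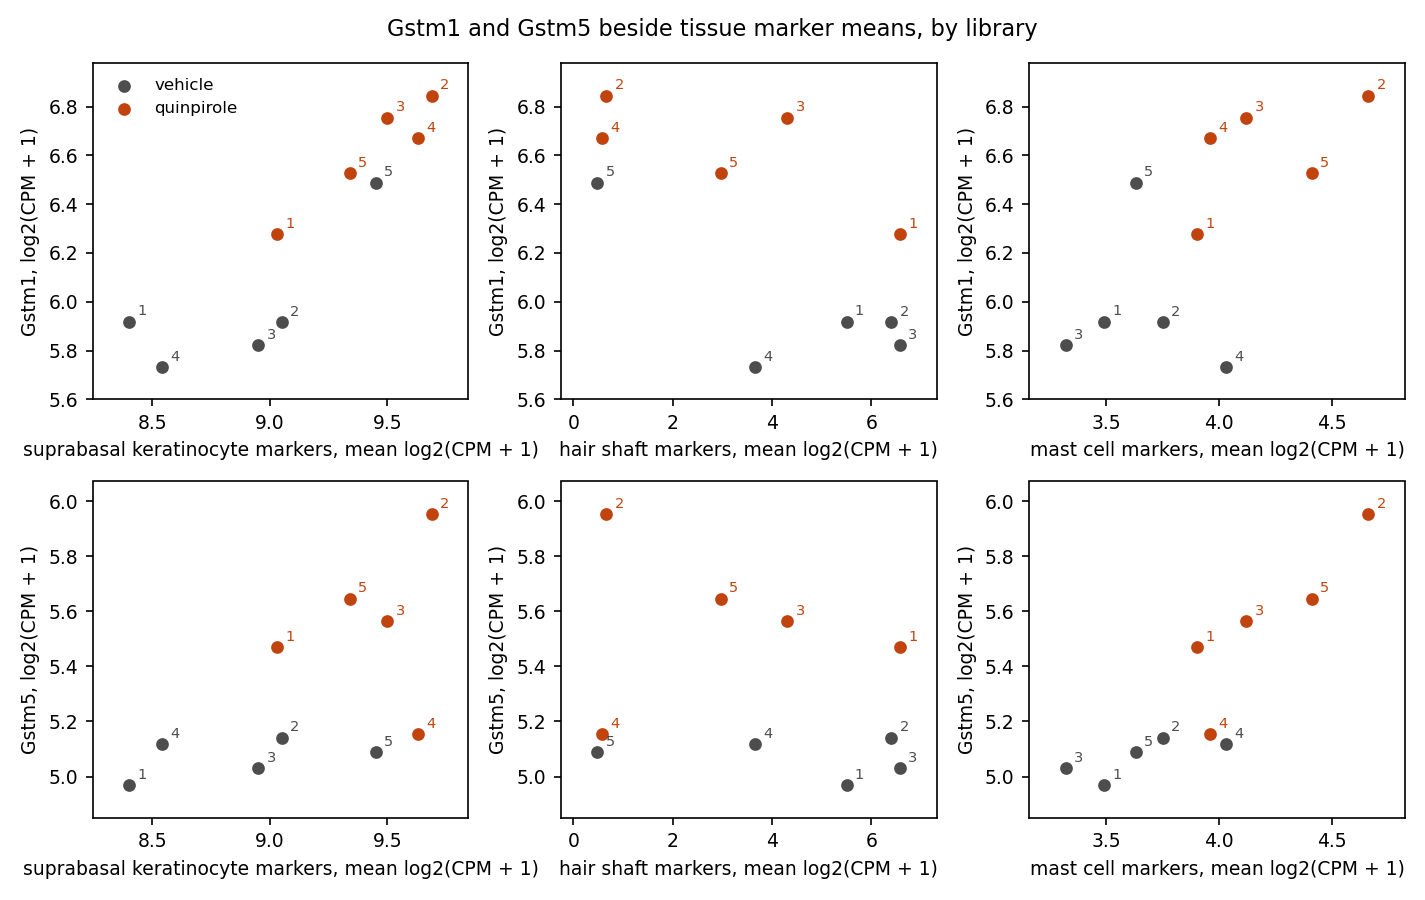
Gstm1 (top row) and Gstm5 (bottom row) as log2(CPM + 1) on the vertical axes against the mean log2(CPM + 1) of suprabasal keratinocyte, hair shaft and mast cell markers on the horizontal axes, each point a library (grey vehicle, orange quinpirole) labelled by replicate number. Vehicle replicate 5 lies among the quinpirole libraries for Gstm1 and for the suprabasal mean (9.45), and quinpirole replicate 2 is highest for Gstm5 and for the mast cell mean.

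The other glutathione transferases, of the alpha, kappa, omega, pi, sigma, theta, zeta and microsomal families, were read beside the mu class, and Gstcd was listed with them. Of 21 genes listed, 17 were tested, 12 were higher and 5 lower on average with quinpirole, and 0 passed limma. The unadjusted p was under 0.05 for 2 higher and 2 lower of the 17, against 6.92% and 4.47% of all genes tested. The median log2 fold change was 0.22, against -0.0021 over all genes tested and 0.37 over the 6 mu-class members. It was 0.0547 without vehicle replicate 3, 0.071 without quinpirole replicate 2 and 0.0909 with the hair shaft covariate. The 4 with the smallest p went both ways. Gstk1, the kappa-class enzyme of mitochondria and peroxisomes, was at 15.4 ± 2.01 and 21.7 ± 3.15 CPM with vehicle and quinpirole (SD, n = 5, log2 fold change 0.47, limma adjusted p = 0.223), with groups apart. Gsta4, which conjugates the lipid peroxidation product 4-hydroxynonenal, was at 32.7 ± 23.7 and 14.2 ± 5.86 CPM (-1.01, limma adjusted p = 0.314). Gstt1, of the theta class, was at 6.84 ± 1.601 and 10.2 ± 2.40 CPM (0.51, limma adjusted p = 0.314). Hpgds, the sigma-class enzyme that makes prostaglandin D2, was at 58.7 ± 19.4 and 40.2 ± 5.48 CPM (-0.48, limma adjusted p = 0.433). With DESeq2 on the recovered reads, 0 of the 17 genes passed, where 1.51% of all genes tested did.

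**Figure D3:**
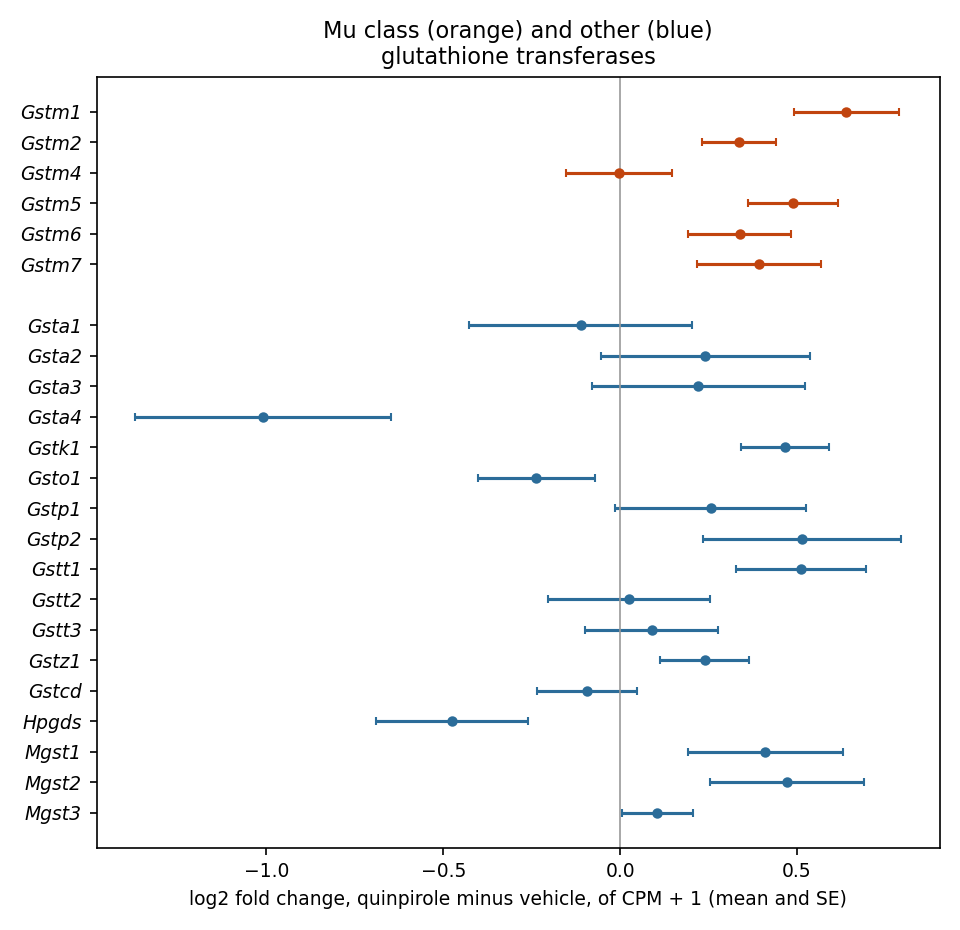
Log2 fold change, quinpirole minus vehicle, of CPM + 1 (horizontal axis) for the 6 mu-class genes tested (orange) and 17 other glutathione transferases (blue), each point the limma estimate with its SE over 5 libraries per group. Gstm1 is the highest of the mu class at 0.64 and Gstm4 lies at 0, while the other classes run from -1.01 for Gsta4 to above 0.5 for Gstp2 and Gstt1.

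The genes that make, recycle and use glutathione were spread around 0. Of 29 listed, 27 were tested, 11 were higher and 16 lower on average, with a median log2 fold change of -0.08, and 0 passed limma (unadjusted p under 0.05 for 3 higher and 3 lower of 27, against 6.92% and 4.47% of all genes tested). Slc3a2, the heavy chain of the cystine carrier, was at 132.7 ± 10.0 CPM with vehicle and 99.9 ± 9.02 CPM with quinpirole (SD, n = 5, log2 fold change -0.41, limma adjusted p = 0.159), with groups apart. Slc7a11, its partner that carries cystine, was at 497.3 ± 212 and 267 ± 99.2 CPM (-0.86, limma adjusted p = 0.324). The glutathione peroxidases Gpx4 (121.8 ± 17.3 and 164 ± 15.0 CPM, 0.43, limma adjusted p = 0.195) and Gpx8 (16.6 ± 1.54 and 21.99 ± 1.76 CPM, 0.39, limma adjusted p = 0.203) lay the other way, also with groups apart. Gclc and Gclm, the subunits of the rate-limiting enzyme of glutathione synthesis, had log2 fold changes of -0.32 and -0.14. With DESeq2 on the recovered reads, 1 higher and 1 lower of the 27 genes passed, where 1.51% of all genes tested did.

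The mRNA of Nfe2l2, which encodes NRF2, differed between groups by less than its spread (251.8 ± 63.8 and 251.2 ± 47.5 CPM, SD, n = 5). So did that of Keap1, which encodes the inhibitor of NRF2 (26.9 ± 3.32 and 27.9 ± 4.71 CPM). The level and activity of the NRF2 protein were not measured. Of 32 regulators and targets of NRF2 outside the glutathione transferases, all tested, 16 were higher and 16 lower on average (median -0.01), and 0 passed limma (unadjusted p under 0.05 for 3 higher and 2 lower of 32, against 6.92% and 4.47% of all genes tested). The 4 smallest p values were those of Ephx1, the microsomal epoxide hydrolase (22.1 ± 2.60 and 36.8 ± 9.89 CPM, log2 fold change 0.69, limma adjusted p = 0.174), Hmox1, heme oxygenase (0.69, limma adjusted p = 0.192), Blvrb, biliverdin reductase B (0.38, limma adjusted p = 0.192), and Txnrd1, thioredoxin reductase (-0.24, limma adjusted p = 0.267). Nqo1, another NRF2 target, was at 22.6 ± 7.16 and 15.6 ± 4.22 CPM (-0.48, limma adjusted p = 0.441). It was named after its values were seen. With DESeq2 on the recovered reads, 3 of the 32 genes passed, all of them higher, where 1.51% of all genes tested did.

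Of 16 genes for export of glutathione conjugates and for mercapturic acid formation, 14 were tested, 8 were higher and 6 lower (median 0.05). In this list 0 genes passed limma and 0 of 14 had an unadjusted p under 0.05, against 11.4% of all genes tested. Ggt1, a gamma-glutamyl transferase that starts the trimming of conjugates, had the smallest p, at 5.28 ± 4.63 CPM with vehicle and 1.86 ± 2.97 CPM with quinpirole (SD, n = 5, log2 fold change -1.14, limma adjusted p = 0.579). Its libraries ran from 0 to 10.4 CPM with vehicle and from 0 to 7.02 CPM with quinpirole, and the SE of its log2 fold change was 0.72. The next genes by limma p were Ggt5 at -0.28, Dpep2 at 0.28 and Dpep1 at -0.21, the last 2 being dipeptidases of the same route. The export pump Abcc1 was at 206.6 ± 13.5 and 221.3 ± 17.8 CPM (log2 fold change 0.10). With DESeq2 on the recovered reads, 0 of the 14 genes passed, where 1.51% of all genes tested did.

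Genes that flank the Gstm cluster were looked at as neighbours. Of 11 protein-coding genes within 200 kb of its ends, 8 were tested, 5 were higher and 3 lower, with a median log2 fold change of 0.01, and 0 passed limma (2 of 8 had an unadjusted p under 0.05, against 11.4% of all genes tested). The tested genes nearest to Gstm4 on its outer side, Ampd2 and Gnai3, were at 0.00 (SE 0.14) and 0.02 (SE 0.10). Csf1, which encodes the growth factor of macrophages, lies on the side of Gstm5 and was at 35.4 ± 7.90 CPM with vehicle and 53.0 ± 11.8 CPM with quinpirole (SD, n = 5, log2 fold change 0.57, limma adjusted p = 0.259). Sypl2, a membrane protein of skeletal muscle, had the highest value of the neighbours, 1.02 (limma adjusted p = 0.325), beside the muscle markers given above.

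**Figure D4:**
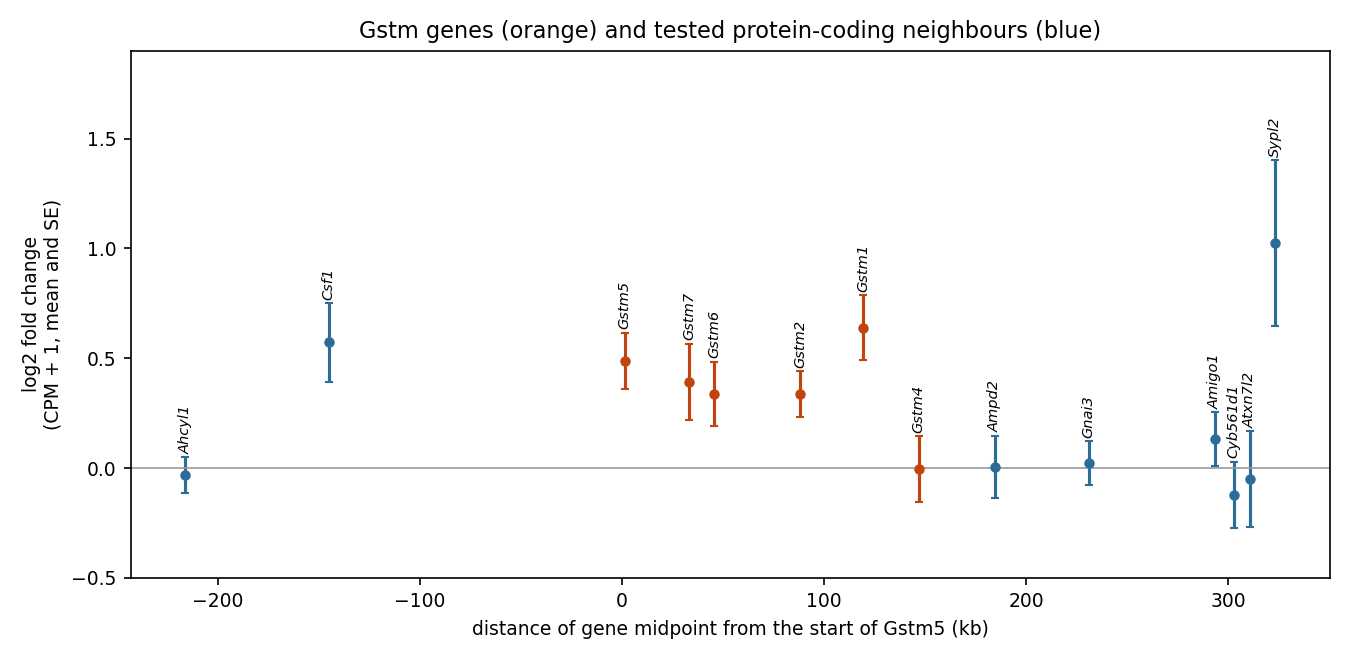
Log2 fold change, quinpirole minus vehicle, of CPM + 1 (vertical axis, limma estimate with SE over 5 libraries per group) by distance in kb of each gene's midpoint from the start of Gstm5 (horizontal axis), for the 6 tested Gstm genes (orange) and 8 tested protein-coding neighbours (blue). The members from Gstm5 to Gstm1 lie between 0.34 and 0.64, Gstm4 at the end of the cluster lies at 0, and the neighbours run from -0.12 to 1.02.

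The promoters were searched for the core of the antioxidant response element, TGACNNNGC, on both strands, from 250 bases before to 50 after each RefSeq start (build GRCm38.p6). The motif was present in 2 of 12 Gstm promoters, and in 12.4% of the 32851 promoters of all genes. The matches were in the Gstm5 promoter, beginning 42 bases before its start, and in the promoter of 1 of the 2 RefSeq starts of Gstm7, beginning 129 bases before that start. The Gstm7 match lies inside the gene as annotated in GENCODE, and its stretch is not shown. The Gstm5 match lies before the start of its gene in that annotation, and a stretch holding it is shown. The stretch is chr3:107895761-107895820 on the plus strand, ends just before the start of the gene in the GENCODE annotation, and has the motif in capitals.
Gstm5 promoter: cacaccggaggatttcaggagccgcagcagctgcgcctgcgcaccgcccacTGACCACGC
A match is a run of letters and not a shown site. The promoters of Gstm1, Gstm2, Gstm3, Gstm4 and Gstm6 held none in these windows. Sequence farther from the starts was not searched, and a relation of matches with levels was not tested.

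The genes whose level most resembled the summed Gstm level were ranked by r within groups over the 10 libraries, among 11510 genes with a mean of at least 5 CPM. The 5th, 50th and 95th percentiles of r were -0.685, 0.0572 and 0.685. The highest were Aldh3b3 (r = 0.94), an aldehyde dehydrogenase, Lrrc1 (0.94), Unc93a (0.94), Wfdc5 (0.94), Tprg (0.94), Il1f5 (0.93), which encodes the antagonist of the interleukin-36 receptor, Aktip (0.92) and Laptm4b (0.92). The lowest were Tspan13 (-0.96), a tetraspanin, Mcm2 (-0.94), a subunit of the replicative helicase, Lbr (-0.94), the lamin B receptor, and Etv4 (-0.93), an ETS transcription factor. With 10 libraries that share their tissue makeup such values are a description. The ranking depended on how it was made, as 1 of the 8 genes stayed in the top 8 without removal of the group means, 0 in the vehicle libraries alone and 1 in the quinpirole libraries alone.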

How the data were processed

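Total RNA of whole skin from 5 vehicle and 5 quinpirole samples was depleted of ribosomal RNA and made into directional libraries with kits of the MGIEasy series, per the labels' protocols. The authors deposited a signal table of normalized values per gene symbol, with 17016 genes and 10 libraries, and all value columns matched a sample by its labels. Per the submitters' processing notes, which give no order, mm10 was the build and edgeR, RSEM 1.3.0, Bowtie2 and Trimmomatic 0.38 were used. Not given in the sources used here are the annotation, the filter on genes, the strand setting and the read length. Reads that fit several near-identical genes can be split between them by RSEM.

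In each column 100% of the deposited signal values were whole multiples of the value of 1 read, within 1e-06, so reads could be recovered. The values equalled CPM on library sizes scaled with edgeR's TMM method, within a relative difference of 4.94e-12. No gene had fewer than 10 reads in all. Values were transformed as log2(CPM + 1), and genes with at least 1 CPM in at least 5 libraries (14548) were tested with limma 3.58.1 in R 4.3.3, with a mean-variance trend, two-sided and without covariates, Benjamini-Hochberg adjusted and called at 0.05. The fold change of a low gene is understated on this scale. These steps were first tested on simulated data. Fits with edgeR 4.0.16 and DESeq2 1.42.0 on recovered reads, other pseudocounts, filters and scalings, the replicate block, marker means as covariates and fits without each library in turn were alternatives. The suprabasal keratinocyte covariate was added after seeing the data. No library repeated another: the lowest chi-square per gene between libraries of the same group was 6.41, and sampling noise alone gives about 1. No batch is named in the labels used here.

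The members, gene lists and tests were chosen with earlier results of these data known. Genes named are every member, the 8 highest and 4 lowest by likeness, the 4 members of each pathway list with the smallest p where none was called, and the cluster neighbours by count and range. Named beyond this rule, after their values were seen, were Gclc, Gclm, Nfe2l2, Keap1, Nqo1, Abcc1, Ampd2, Gnai3, Csf1, Sypl2, Gstp2 and 4933431E20Rik. Positions and transcripts came from GENCODE, in which 95.9% of symbols matched a single gene, and promoters from RefSeq. Protein sequences were not used here.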

Additional observations from a re-analysis of the deposited data

Results flagged for a closer look

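Gstm1 was at 88.8 CPM in vehicle replicate 5, against 52.2 to 59.5 CPM in the other vehicle libraries. Its distance to the nearest of these was 0.801 of the range of the group, above the limit of 0.71 for 5 samples. In all, 16 groups of 5 libraries were looked at in this way, and chance marks about 1 in 20 groups. The log2 fold change of Gstm1 was 0.64 with this library and 0.77 without it. The same library had the lowest hair shaft mean of the 10 libraries (0.48) and the highest suprabasal keratinocyte mean of the vehicle libraries (9.45), and the part of these in its Gstm1 level was not tested.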

How the results depend on the processing

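The number of genes called was 3 and moved with the processing. It was 5 with a pseudocount of 0.1, 6 with no filter, 5 with 1 CPM required in all libraries, 5 with CPM without normalization factors and 5 with DESeq2 size factors. On recovered reads it was 1 with edgeR and 219 with DESeq2. It was 14 with the hair shaft covariate, 0 with the skeletal muscle covariate (1193 with unadjusted p under 0.05) and 0 with the suprabasal keratinocyte covariate (725 by the unadjusted p), all in limma. Leaving out each library gave 0 to 10, with 10 without vehicle replicate 5 and 1 without vehicle replicate 3. With the replicate block limma called 0 genes (1576 at an unadjusted p under 0.05). Libraries of the same number correlated by -0.238 to 0.22 after removal of group means, 3 of 5 pairs over 0.1 and none best with its own number, so the numbers were not taken as pairs. Under the suprabasal covariate the log2 fold change of the summed Gstm level was 0.28 in place of 0.45, that of Gstm1 0.30 in place of 0.64, and that of Gstm7 0.64 in place of 0.39. The median of the glutathione synthesis list was 0.0301 with the skeletal muscle covariate, against -0.0774. The median of the other glutathione transferases was 0.22 and ran from 0.0547 without vehicle replicate 3 to 0.312 without vehicle replicate 5, with 0.071 without quinpirole replicate 2. Of the 8 genes most like the summed level, 1 stayed with plain values, 0 in vehicle and 1 in quinpirole libraries alone. Depth limits Gstm3 and Gstm7, with 15 and 127 reads over all libraries.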
